A study of Mus musculus with 6 samples.

Results

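Purkinje cells are the large GABAergic neurons of the cerebellar cortex and its only output, and in the newborn mouse they are still settling into a layer and beginning to grow dendrites. Transcription factors of the LIM-homeodomain, forkhead and retinoid-related orphan receptor families guide their differentiation, and the mature cell signals through metabotropic glutamate receptors that release calcium from internal stores through the IP3 receptor. The 9 genes described here are commonly used as markers or regulators of these cells, and were taken as a list by symbol. They are the calcium-binding protein gene Calb1, the Purkinje cell protein genes Pcp2 and Pcp4, the transcription factor genes Foxp2, Lhx1, Lhx5 and Rora, the IP3 receptor gene Itpr1, and Car8, whose protein binds that receptor. They stand among 34797 distinct gene or transcript names on the array, and all 9 genes were found there, by 17 probes.

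The study asked whether a higher amount of folic acid (FA) in the maternal diet alters gene expression in the cerebellum of the offspring. C57BL/6J dams received an amino acid-based AIN-93G diet that held FA at 2 mg/kg in the control group and 20 mg/kg in the test group from the week before mating and through gestation, and the cerebellum was taken from pups at postnatal day 1. Each of the 6 single-colour arrays held RNA of a pool of 3 pups of one sex, every pup from another dam, so that a sex had 1 pool at the lower dose and 2 pools at the higher. The second RNA extraction at 20 mg came from a different batch of pups, and no second pool was made at 2 mg, so the spread between pools is known only at 20 mg. The tissue field of the sample labels reads whole brain, while the titles and the protocol give cerebellum. In bulk tissue, fewer Purkinje cells and less RNA per Purkinje cell cannot be told apart. Nor can RNA from other cells that hold some of these genes. In the marker lists used here, Lhx1 and Lhx5 also mark cerebellar interneurons. Striatum and thalamus also hold Foxp2, Pcp4, Rora and Calb1.

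One array, labelled female 20 mg replicate 2, stood apart from the rest and is called the dim array labelled female below. By the scanner software's own flag, 23.3% of its 55681 probes were well above background, against 51.1% to 71.9% on the other 5 arrays. It also went against its label in part. The Y-linked transcript Eif2s3y had a log2 signal of 10.12 there and was well above background, close to the male arrays at 10.62 to 11.99. The female 2 mg array lay at the floor of 3.32. Female 20 mg replicate 1 had 4.04, which the flag also put well above background. The Y-linked Ddx3y had a value of 7.71 there, though not well above background, and the floor value on the other female arrays. Uty, also Y-linked, had 6.34 there, again not well above background, and the floor value on the other female arrays. The Y-linked Kdm5d lay at the floor there, as it did on male 20 mg replicate 1. Xist, the transcript of the inactive X chromosome, had a value of 7.27 on it, also not well above background, against 9.67 and 10.84 on the other female arrays and the floor on the male arrays. The values of the 9 genes are therefore given array by array, and the main results also without this array. Slide 1 carried both pools at 2 mg together with female 20 mg replicate 1. Slide 2, with the dim array labelled female and male 20 mg replicate 1, was scanned on an earlier day, and slide 3 held male 20 mg replicate 2. Within males, slide and dose cannot be told apart.

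Each probe is a synthetic stretch of 60 bases that matches one transcript, and genes with several probes are measured more than once. Since Car8, Lhx1 and Calb1 each have a pair of probes, which bear on the results below in different ways, the first 30 bases of these probes are printed here in the 5′ to 3′ direction as the array files give them, with no base marked. Positions are those of the array design in the mouse build mm9.
Car8, brighter probe, chr4:8070545-8070604, minus strand: atctgattcagaatagaaacattactgtgt
Car8, dimmer probe, chr4:8068657-8068716, minus strand: ttagcactcctttatagtgacctaattaca
Lhx1, brighter probe, chr11:84331888-84331947, minus strand: tatgtaaaaaggtgttgtttacacgaggca
Lhx1, dimmer probe, chr11:84335442-84335594, minus strand: agtgtcgccaaagagaacagcctccactcg
Calb1, brighter probe, chr4:15835078-15835137, plus strand: gaagtagcagttcctgatgaggaataaggg
Calb1, dimmer probe, chr4:15833582-15833641, plus strand: ctcagtgaatgacttagaggtatgagcagt
The dimmer Lhx1 probe covers 153 bases of the genome with 60 bases of sequence, so it crosses at least one splice junction, whereas each of the other probes shown matches an unbroken run. Whether a probe lies in coding sequence or in an untranslated region could not be read from the files. The GC content of both Car8 probes was 28.3%, that of the Lhx1 probes was 36.7% and 55%, and that of the Calb1 probes was 45% and 35%.

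All 9 genes were detected in this tissue. On each of the 5 arrays other than the dim one labelled female, the brightest probe of every gene was well above background. On that array 5 of the 9 remained so, namely Calb1, Pcp2, Pcp4, Lhx5 and Itpr1, while Foxp2, Lhx1, Rora and Car8 did not. Values below are log2 signals after quantile normalization, which gives all arrays the same distribution, with a floor of 3.32 that stands for a processed signal of 10. Differences are 20 mg minus 2 mg within a sex on the same scale, and signals of different probes are not comparable with each other.

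**Figure D1:**
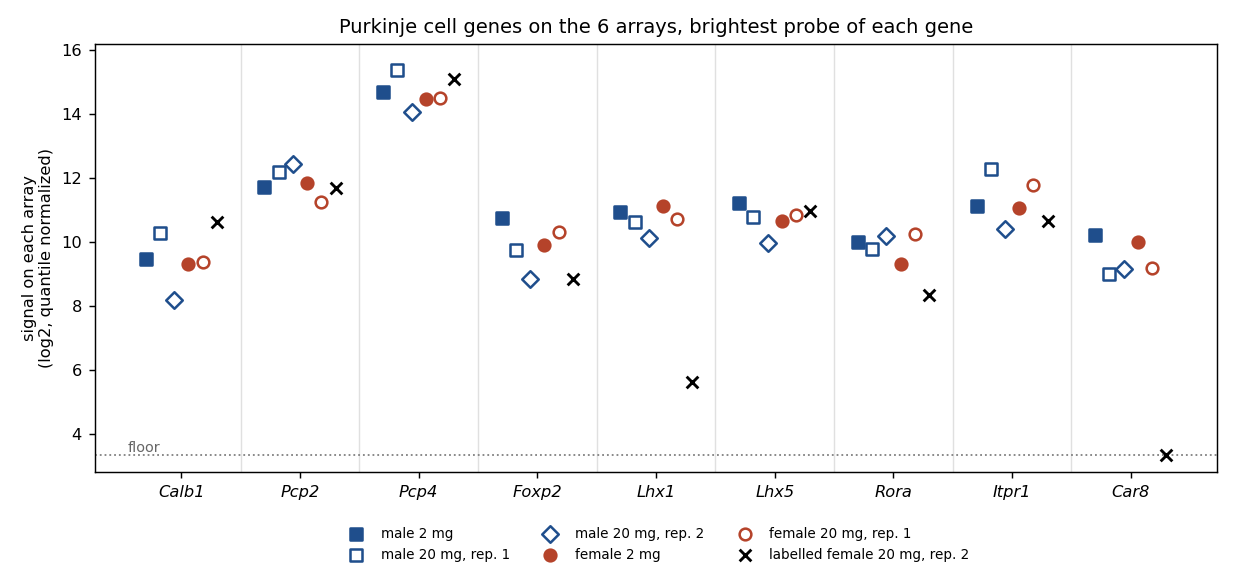
The log2 signal of the brightest probe of each of the 9 genes on the 6 arrays, each point being 1 pool of 3 pups; filled symbols are 2 mg, open symbols are 20 mg, and the cross is the dim array labelled female. For Car8 and Lhx1 all 4 arrays at 20 mg lie below both arrays at 2 mg, with the cross at 3.32 for Car8 and 5.62 for Lhx1.

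The clearest separation of the doses was that of Car8, a carbonic anhydrase-related protein without enzyme activity that binds the IP3 receptor. Its brighter probe had a log2 signal of 10.21 in the male 2 mg pool and 10.00 in the female 2 mg pool. At 20 mg it had 9.01 and 9.17 in the male pools, 9.18 in female replicate 1, and 3.32, the floor, on the dim array labelled female. All 4 arrays at 20 mg thus lay below both arrays at 2 mg. Without the dim array labelled female, the other 3 pools at 20 mg, taken over both sexes, had a mean of 9.12 ± 0.097 (SD, n = 3). This was 0.99 lower on the log2 scale than the mean of the 2 mg pools, or 1.98-fold. On the dimmer Car8 probe the same pools had 8.25 ± 0.713 (SD, n = 3), lower by 1.52-fold, so the small SD belonged to the brighter probe only.

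The LIM-homeodomain factor gene Lhx1, which acts with Lhx5 in specifying Purkinje cells, followed the same order. Its brighter probe had 10.95 in the male and 11.14 in the female 2 mg pool. At 20 mg it had 10.61 and 10.11 in the male pools, 10.71 in female replicate 1 and 5.62 on the dim array labelled female. The 3 pools without that array had a mean of 10.48 ± 0.32 (SD, n = 3), lower by 1.48-fold than the 2 mg pools, so the change was smaller than that of Car8.

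No other gene of the 9 separated the doses in this way. Over all 37211 probes well above background on at least 2 arrays, all 4 arrays at 20 mg lay below both arrays at 2 mg for 4.59% and above them for 3.75%, so 2 of 9 lower and 0 of 9 higher stand beside these shares. Without the dim array labelled female, the same 2 genes were separated, and the shares over all probes were 7.02% lower and 8.04% higher. A count of 2 among 9 genes is too small to set the list apart from these shares.

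Neither difference passed the limma test. That test takes the spread of a gene mostly from other probes, with 19 prior against 2 residual degrees of freedom. Its SE is therefore not the gene's own spread between pools. The limma fit over both sexes gave Car8 a difference of -2.44 ± 1.42 (SE) with a 95% interval of -5.39 to 0.52 and adjusted p = 1, and without the dim array labelled female it gave -0.95 ± 0.75 (SE) with adjusted p = 1. For Lhx1 it gave -1.78 ± 1.14 (SE) with a 95% interval of -4.15 to 0.59 and adjusted p = 1, and -0.49 ± 0.64 (SE) without that array. No probe on the whole array was called for dose over both sexes (0% of 37211 probes at an adjusted p under 0.05), in males, in females, or for the interaction of dose and sex. In simulated data with each probe's own noise SD from these arrays, the fit found 0% of changes of 4 (log2) in each sex and over both. Such an SD rests on 2 residual degrees of freedom, so the simulation is only a rough guide to what the fit can find. With so few pools, the lack of calls does not show a lack of effect. At an unadjusted p under 0.05 there were 145 probes over both sexes, 74 in males, 161 in females and 51 for the interaction, none of them the brightest probe of a member. Without the dim array labelled female these numbers were 77, 112, 61 and 59, again with 0 probes called after adjustment. With slide as a block in an additive fit the sign of both genes turned, to 0.55 ± 1.72 (SE) for Car8 and 0.87 ± 1.26 (SE) for Lhx1, while with scan day as a block they stayed negative, at -0.93 ± 1.497 (SE) and -0.64 ± 1.36 (SE). Within slide 2, the slide fit could compare only the dim array labelled female with male 20 mg replicate 1, both at 20 mg. That slide thus entered the dose difference only through the sex term. The slide fit was not run without the dim array. On slide 1 alone, which lacks that array, the differences were -0.93 for Car8 and -0.32 for Lhx1. Of the 5 choroid plexus markers described below, 4 were higher on all 4 arrays at 20 mg, and their part was not tested.

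On the slide that held both 2 mg pools and female 20 mg replicate 1, the spread was taken from the difference between the 2 mg pools of the sexes. Here too limma shared this spread over the probes. There Car8 had a difference of -0.93 ± 0.24 (SE), with adjusted p = 0.11 by limma, and did not pass. Itpr1 was at 0.66 ± 0.20 (SE) with adjusted p = 0.153, Pcp2 was at -0.51 ± 0.20 (SE) with adjusted p = 0.225, and the other 6 genes had adjusted p from 0.363 upward. In the same comparison 1.63% of all probes were called lower and 0.331% higher, and 0 of the 9 genes were among them. This comparison sets 1 pool against 2 pools and has 1 residual degree of freedom.

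The second probes of these genes gave a partial repeat. The dimmer Car8 probe had 9.12 and 8.59 in the male and female 2 mg pools, 9.003 and 7.59 in the male 20 mg pools, 8.16 in female replicate 1 and 3.32 on the dim array labelled female. Each pool at 20 mg was below the 2 mg pool of its own sex on this probe too, but male 20 mg replicate 1 lay above the female 2 mg pool, so the doses overlapped. The dimmer Lhx1 probe did not follow the brighter one, with 6.85 and 6.92 at 2 mg, and 6.37, 8.92, 6.75 and 7.18 at 20 mg in males and then females. The highest of these was male 20 mg replicate 2, where the brighter probe had its lowest value of the 5 arrays that measured it.

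**Figure D2:**
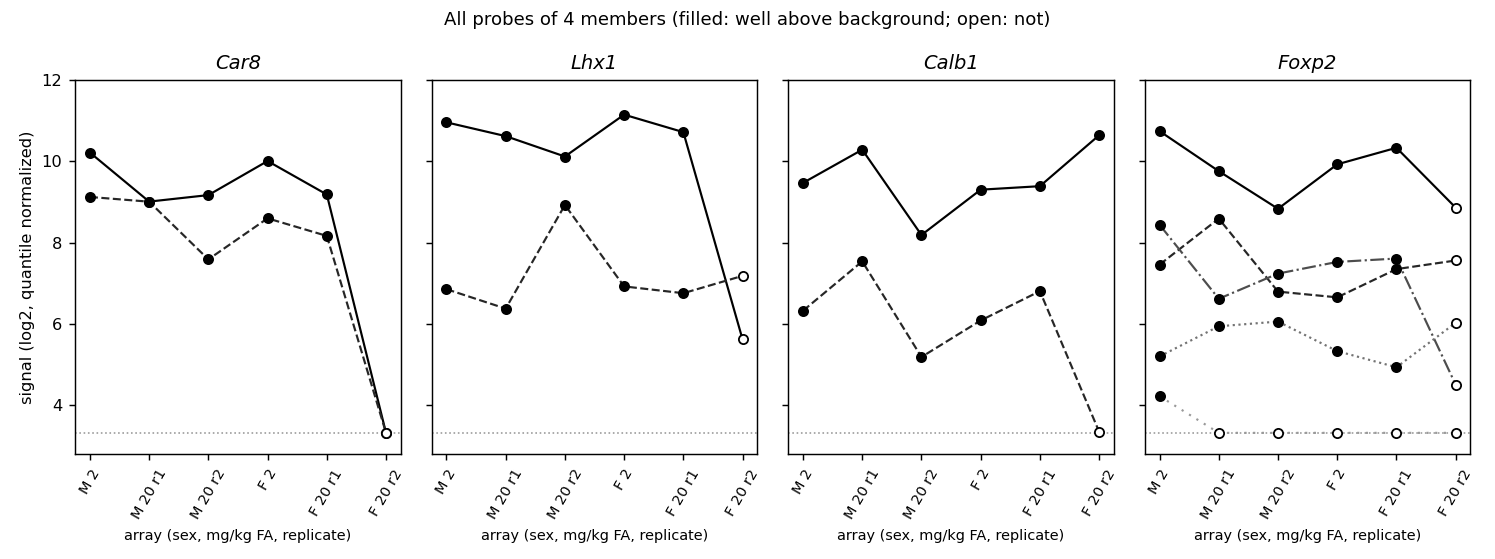
The log2 signal of every probe of Car8, Lhx1, Calb1 and Foxp2 on the 6 arrays (M male, F female, 2 or 20 mg/kg FA, r replicate), each line being 1 probe and filled points being well above background. Both Car8 probes fall to the floor on the dim array labelled female, while the pair of Lhx1 probes and the 5 Foxp2 probes take different courses.

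The related factor gene Lhx5 had the opposite course on the arrays labelled male and female. In males its log2 signal was 11.22 at 2 mg and 10.77 and 9.98 at 20 mg, so both 20 mg pools were lower, and the difference of the mean was -0.85 with an SD of 0.56 between the 20 mg pools (n = 2). In females it was 10.65 at 2 mg and 10.86 in 20 mg replicate 1, and 10.97 on the dim array labelled female, whose Y-linked signal goes against that label. The limma interaction of dose and sex was 1.12 ± 1.62 (SE) with adjusted p = 1, and 1.01 ± 1.33 (SE) with adjusted p = 1 without that array, so a difference between the sexes was not shown.

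Foxp2, a forkhead transcription factor gene expressed in postmigratory Purkinje cells, was lower in males, with 10.74 at 2 mg and 9.75 and 8.83 at 20 mg. Its mean difference in males of -1.45, a 2.72-fold lower signal, was the largest of the 9 genes in that sex, against an SD of 0.65 between the 20 mg pools (n = 2). In females it was 9.92 at 2 mg, 10.33 in 20 mg replicate 1 and 8.86, not well above background, on the dim array labelled female, so the 20 mg values lay on both sides of the 2 mg value. The limma fit in males gave -1.45 ± 1.36 (SE) with adjusted p = 1. The other 4 Foxp2 probes did not share one direction in males, where 1 probe was lower by 2.85-fold, 1 probe was near the floor, and 2 probes had differences of 0.23 and 0.80.

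Rora, the nuclear receptor gene mutated in the staggerer mouse, had nearly the same mean at both doses. Its brightest probe had 10.00 in the male 2 mg pool and 9.79 and 10.19 in the male 20 mg pools, a difference of -0.006. In females it had 9.32 at 2 mg, 10.25 in 20 mg replicate 1 and 8.33, not well above background, on the dim array labelled female, which lie on either side of the 2 mg value. Its second probe was well above background on 2 of the 6 arrays and lay between 3.32 and 4.73.

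Pcp2, a modulator of G protein signalling found mainly in Purkinje cells and retinal bipolar cells, was the other gene with opposite courses on the arrays labelled male and female. In males it had 11.74 at 2 mg and 12.18 and 12.46 at 20 mg, both higher, a difference of 0.58 with an SD of 0.19 between the 20 mg pools (n = 2). In females it had 11.84 at 2 mg and 11.25 in 20 mg replicate 1, and 11.70 on the dim array labelled female, which carries Y-linked signal. The limma interaction was -0.94 ± 1.43 (SE) with adjusted p = 1, and -1.10 ± 1.15 (SE) with adjusted p = 1 without that array, and the dose difference itself had an adjusted p of 1 in either sex.

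Calb1, Pcp4 and Itpr1 showed no single direction between the doses in males. Calb1, which encodes the calcium buffer calbindin, had 9.46 in the male 2 mg pool against 10.28 and 8.18 at 20 mg, and 9.30 in the female 2 mg pool against 9.38 and 10.64. Pcp4, which encodes a calmodulin-binding peptide, had 14.71 in the male 2 mg pool against 15.39 and 14.06, and 14.49 in the female 2 mg pool against 14.50 and 15.11. Itpr1, the calcium release channel of the endoplasmic reticulum, had 11.14 in the male 2 mg pool against 12.28 and 10.40, and 11.06 in the female 2 mg pool against 11.79 and 10.67. For all 3 genes male 20 mg replicate 1 was above and male 20 mg replicate 2 below the male 2 mg pool, so the pools at 20 mg differed from each other by more than either mean differed from 2 mg. The dimmer Calb1 probe kept this order in males, with 6.32 at 2 mg and 7.54 and 5.19 at 20 mg, and parted from the brighter one on the dim array labelled female, where it had 3.35 and was not well above background.

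**Figure D3:**
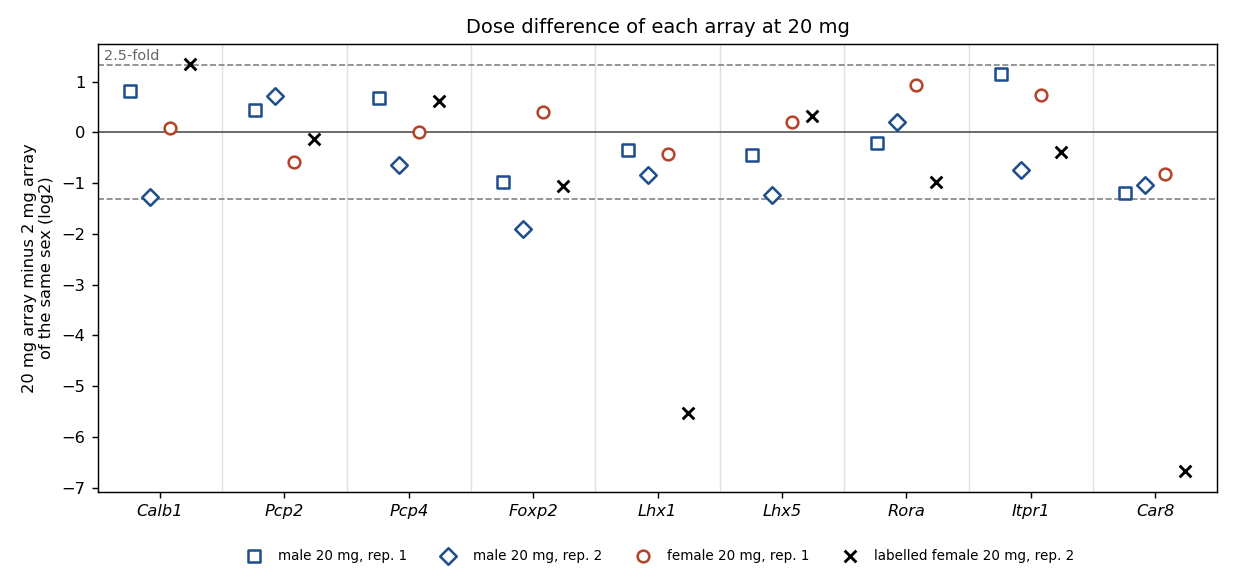
The difference of each array at 20 mg from the 2 mg array of its sex (log2) for the brightest probe of each gene; dashed lines mark 2.5-fold. Car8 and Lhx1 are below 0 on all 4 arrays, and the values of -6.68 and -5.52 belong to the dim array labelled female.

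The rule of the study's methods asks for a 2.5-fold difference of the mean and for a variation over the arrays above that of most probes. By this rule 0 of the 9 genes were called in males, where 2.97% of all probes were called lower and 1.7% higher. In females 2 of 9 were called, both lower, namely Car8 by 13.5-fold and Lhx1 by 7.87-fold, where 15.3% of all probes were called lower and 5.43% higher. On the array behind these folds neither probe was well above background, and other processing gave other sizes, 4.61-fold and 3.83-fold with normexp background correction and 9.81-fold and 12.7-fold with the floor set before normalization. Both calls rest on this dim array labelled female, and without it 0 of 9 were called in females, with differences of -0.81 for Car8 and -0.41 for Lhx1. Of the other probes of these genes, 1 Foxp2 probe was called lower by 2.85-fold in males and by 2.76-fold in females, and the dimmer Car8 probe by 7.22-fold in females, while female replicate 1 alone had 0.083 and -0.43 for these probes. The brightest Foxp2 probe in males passed the fold but not the variation filter, which kept 2 of the 9 brightest probes. The rule has no test, and 38.2% of all probes differed by at least 2.5-fold between the male pools at 20 mg, and 54.2% between the arrays labelled female at 20 mg. In the simulated data with the noise of these arrays, 31.4% of unchanged probes passed 2.5-fold in males and 31.5% in females, without the variation filter.

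For some of the genes, the spread between the pools at 20 mg was larger than the dose difference. In males, the SD between the 20 mg pools exceeded the size of the dose difference for 4 of 9 genes, and both pools lay on opposite sides of the 2 mg value for the same number. In females the SD exceeded the difference for 7 of 9 genes, a count that rests on the dim array labelled female, without which no SD is left. The median difference of the 9 genes was -0.23 in males, where that of all probes was -0.039, and 0.086 in female replicate 1, where that of all probes was 0.0283. Between the pools of the sexes at 2 mg, the brightest probes of the 9 genes differed by at most 0.82 on the log2 scale, which was Foxp2, lower in females.

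Genes that act beside these 9 were examined as 4 lists drawn from general knowledge, 80 distinct genes in all, every one of them on the array. In males 0 of the 80 were lower and 2 were higher by the 2.5-fold rule (0% and 2.5%, against 2.97% and 1.7% of all probes), in females 6 were lower and 2 were higher (7.5% and 2.5%, against 15.3% and 5.43% of all probes), and none was called by limma over both sexes or on the slide with both 2 mg pools. All 4 arrays at 20 mg lay below both 2 mg pools for 2 of the 80 genes (2.5%) and above them for 2 (2.5%), beside 4.59% and 3.75% of all probes. Without the dim array labelled female, all pools at 20 mg lay below both 2 mg pools for 8.75% of the 80 genes and above them for 7.5%, near the shares over all probes given above. In female 20 mg replicate 1 alone, a comparison chosen after seeing the data and made without the variation filter, 0 of the 80 were past 2.5-fold lower and 2 higher, beside 3.06% and 1.95% of all probes.

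Among 19 transcriptional partners and genes of the Purkinje lineage, 1 gene was higher and 0 were lower in males, and 1 was higher and 2 were lower in females, with a median difference of 0.14 in males. Reln, which encodes the secreted protein that Purkinje cells respond to in migration and which is made by granule and Cajal-Retzius cells, passed 2.5-fold on each array at 20 mg. It had 5.68 in the male 2 mg pool and 7.74 and 7.03 at 20 mg, and 5.40 in the female 2 mg pool and 6.87 and 8.76 at 20 mg, the last not well above background. Over both sexes limma gave it an adjusted p of 1, and on the slide with both 2 mg pools its adjusted p was 0.0784. Ebf1, a factor gene of migrating Purkinje cells, was separated in the other direction on all 4 arrays. It had 10.75 and 11.47 at 2 mg and 9.56, 10.59, 10.42 and 4.60 at 20 mg in males and then females. The last was not well above background, and the 10.59 lay close to the male 2 mg value of 10.75.

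Of 23 genes of calcium and metabotropic glutamate signalling around the IP3 receptor, 0 were called in males, and 3 were called lower and 0 higher in females. No gene of this list passed 2.5-fold on both 20 mg arrays of a sex. The largest mean differences were those of Gna11, which encodes a G protein alpha subunit, and Cacna1a, the gene of the P/Q-type calcium channel, with -3.94 and -2.54 in females. In female replicate 1 alone these genes differed by 0.026 and -0.75, so the size came from the dim array labelled female.

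The 18 genes of later Purkinje markers and of the striped compartments of the cortex had 0 calls in males and 1 gene called lower in females, Stac. Dner, which encodes a Notch-related ligand of Purkinje cells, had the largest mean difference, with 14.46 in the male 2 mg pool and 12.35 and 13.25 at 20 mg, a difference of -1.66 that did not pass the variation filter. In female replicate 1 it was 14.49 against 14.35 at 2 mg. Among 21 relatives of the 9 genes, Lhx6 was called higher in males, with 13.21 at 2 mg and 14.65 and 16.04 at 20 mg, while female replicate 1 had 12.44 against 13.52 at 2 mg. The calcium-binding relative Calb2 had differences of -0.049 in males and 0.43 in females.

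**Figure D4:**
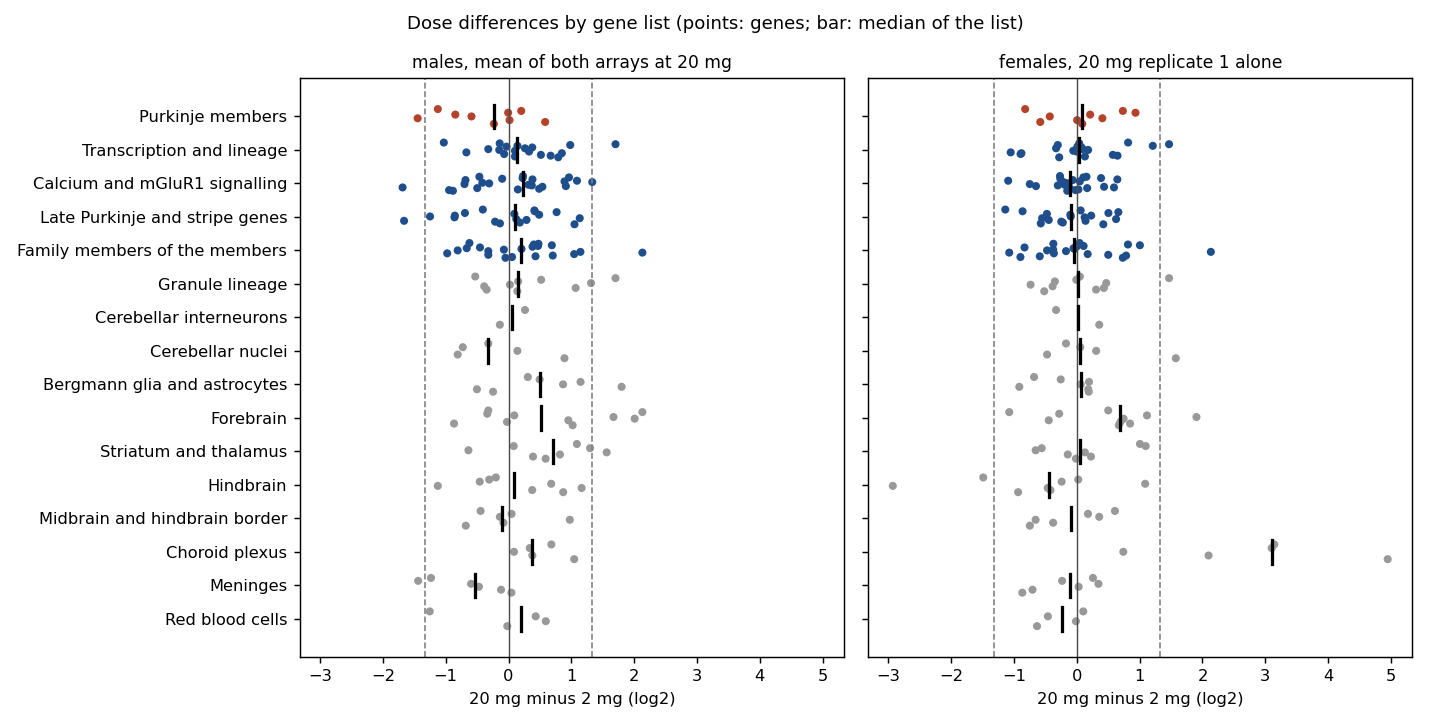
The difference of 20 mg minus 2 mg (log2) for the 9 genes (red), the 4 lists of related genes (blue) and the marker lists of other cells and tissues (grey), as the mean of both male arrays and for female 20 mg replicate 1 alone; bars are medians of a list and dashed lines 2.5-fold. The choroid plexus markers stand to the right in females, with a median of 3.101. The medians of the Purkinje cell genes are -0.23 in males and 0.086 in females. In males Foxp2, at -1.45, lies past the 2.5-fold line, and Car8 is at -1.125.

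Markers of other cells and of neighbouring tissue moved between the pools, and their part in the values above was not tested. Of 5 choroid plexus markers, 4 were higher on all 4 arrays at 20 mg than on both at 2 mg, and the log2 of their summed signal was 11.45 in the female 2 mg pool, 14.34 in the male 2 mg pool and 14.82 to 16.21 at 20 mg. Ttr, its defining secreted carrier protein, had 11.21 in the female and 14.26 in the male 2 mg pool and 14.59 to 16.16 at 20 mg. Of 8 hindbrain markers, 1 was lower on all 4 arrays, Hoxa5. It had 11.94 in the female 2 mg pool and 9.01 and 8.41 on the arrays labelled female at 20 mg. In males it had 9.20 at 2 mg and 6.97 and 9.18 at 20 mg, the last almost equal to the 2 mg value. The summed signal of the hindbrain markers lay between 11.72 and 13.60 at 2 mg and between 11.31 and 12.80 at 20 mg. By the 2.5-fold rule, 3 of 10 forebrain markers were called higher in males and 2 lower in females, and 4 of the 8 hindbrain markers were called lower in females, beside 1.7% higher in males and 15.3% lower in females over all probes. Of the 3 forebrain markers called higher in males, Fezf2 lay at the floor of 3.32 in the male 2 mg pool. Dlx1, another of them, differed by only 0.335 in male 20 mg replicate 2. In female 20 mg replicate 1 alone, 0 forebrain and 2 hindbrain markers were past 2.5-fold lower. Past it higher were 1 forebrain marker, Dlx1 at 1.904, and 4 of the 5 choroid plexus markers. Of 10 markers of the granule cell lineage, 2 were higher on all 4 arrays at 20 mg, Reln and Neurod1. Over all probes, as above, 3.75% were higher and 4.59% lower on all 4 arrays.

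The sum of the granule markers was 15.73 and 15.50 at 2 mg in females and males and 14.83 to 15.60 at 20 mg. The markers of Bergmann glia and astrocytes summed to 16.78 and 16.95 at 2 mg and to 16.07 to 17.07 at 20 mg, and those of the cerebellar nuclei to 13.56 and 13.81 at 2 mg and to 13.25 to 14.18 at 20 mg. For these cerebellar lists the doses overlapped. Interneuron markers other than Lhx1 and Lhx5 summed to 12.33 and 12.20 at 2 mg and to 11.58 to 13.02 at 20 mg. Those of striatum and thalamus summed to 11.49 and 12.08 at 2 mg and to 11.72 to 12.84 at 20 mg. The meninges list lay between 13.20 and 14.32 over all arrays and the red blood cell list between 14.83 and 17.47. En2, which marks the cerebellum and midbrain, had 12.26 in the male and 10.58 in the female 2 mg pool and was well above background on all 6 arrays.

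The 9 genes did not follow one course over the arrays. After each gene was centred on its own mean, their average was 0.21 in the female and 0.49 in the male 2 mg pool, 0.27 in female 20 mg replicate 1, 0.47 and -0.27 in the male 20 mg pools and -1.18 on the dim array labelled female. The named genes most like this average over the 6 arrays were Cth, Cdca4, Rnf32, Tmem183a and Hsph1, with Pearson r from 0.9954 to 0.9974. These values describe 6 points that share a normalization, and the low value of 1 array sets most of the likeness. Over the 5 arrays without it the genes most alike were Foxa2, Bdh2, Txndc15, Ccdc67 and Cd109, none of which was in the first set.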

How the data were processed

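The members of the list, the lists of related genes and the tests were chosen with earlier results of these data known. The intensities of the deposited scanner files came from the authors' use of Agilent Feature Extraction 10.7.3.1, which subtracts a background from every spot. The log2 values of the authors' deposited table were, per the methods, quantile normalized and given a floor in BRB-ArrayTools, and served as an alternative. Their median was 5.23 on the dim array labelled female and 6.49 on the others, so in that table the arrays do not share one distribution.

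Here outlier spots were dropped, replicate spots of a probe averaged, and log2 processed signals were quantile normalized over 6 arrays and raised to a floor of 10. Probes of a gene were found by its symbol, and the gene takes its brightest probe. The fold rule compares the mean of the 20 mg arrays of a sex with its 2 mg array at 2.5-fold, after a variation filter at the 0.05 level that kept 15247 probes. limma 3.58.1 in R 4.3.3 was fitted with 4 groups to 37211 probes well above background on at least 2 arrays, with Benjamini-Hochberg adjustment over all of them, 2 residual degrees of freedom and a prior SD of 1.32. The lone 2 mg array of a sex is assumed to vary like the 20 mg arrays. With 19 prior degrees of freedom, the spread behind a p-value comes mostly from other probes. It is not a gene's own spread between its pools, whose small number limits the precision.

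Related genes were matched by symbol or by accession, of which 98% had an entry in a RefSeq table that served for names only. From a list were named the genes past 2.5-fold on both 20 mg arrays of a sex, or else the 2 genes with the largest mean difference. Genes named outside that rule (Ebf1, Calb2, and single markers) were chosen after their values were seen. Tested on simulated data of 37211 probes, of which 200 differed by 4 (log2), limma found 100% of these in each sex and over both at a noise SD of 0.2. It found 0% at the noise SD of these arrays, taken probe by probe from the residuals of the fit. Alternatives were other normalizations and background corrections, the order of the floor, the deposited table, filters, all probes of a gene, slide and scan day as blocks or alone, and leaving out each 20 mg array. No column of another study was used. One forebrain marker of the lists is not reported here.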

Additional observations from a re-analysis of the deposited data

Results flagged for a closer look

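On the array labelled female 20 mg replicate 2, Car8 and Lhx1 lay far below the other 3 arrays at 20 mg. The gap to the nearest of them made up 0.97 of the whole range for Car8 and 0.882 for Lhx1, above Dixon's critical value for 4 values. For values from a single normal distribution, such a gap occurs in about 1 in 20 groups. Of the 9 genes 2 had one, both on the array with the fewest probes above background. The share of all probes with such a gap on that array was not computed, so this count does not set the 9 genes apart.

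Pcp2 was higher on both male arrays at 20 mg and lower on both arrays labelled female, with a female minus male difference of -0.941 on the log2 scale. Lhx5 was lower on both male arrays and higher on both arrays labelled female, with a difference of 1.116. The directions were read from single arrays and not tested as such, and the limma interaction had an adjusted p of 1 for both genes. Female 20 mg replicate 1 alone had -0.58 for Pcp2 and 0.21 for Lhx5.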

How the results depend on the processing

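No paired analysis was possible because the 2 mg arrays carry no replicate number and each sex has 1. Members called by the 2.5-fold rule in males numbered 0, against 2 with the deposited table (Car8 and Foxp2), 1 without the variation filter and 1 on the later scan day alone (Foxp2 in both). Members called in females numbered 2, against 0 with the 75th percentile shift, where Car8 (-2.20) and Lhx1 (-2.30) passed the fold but not the variation filter, and 0 on the later scan day and on slide 1 alone, and 0 to 2 with 1 array left out, the 0 being without the array labelled female 20 mg replicate 2. limma calls over all probes numbered 0 in every contrast. In females they came to 3 with normexp, 3 with the 75th percentile shift and 0 to 6 with 1 array left out. Over both sexes they came to 1 with the slide block, 26 on the later scan day alone, 728 on slide 1 alone and 0 to 11 with 1 array left out. In males they came to 0 to 1 and for the interaction to 0 to 2 with 1 array left out. No probe of a member was called under any of these. Over both sexes the slide block turned Lhx1 from -1.78 to 0.866 and Car8 from -2.44 to 0.547. In that fit slide 2, with both its arrays at 20 mg, entered the dose difference only through the sex term. There it set male 20 mg replicate 1 against the dim array labelled female. A slide fit without the dim array was not run. On slide 1 alone, which lacks that array, Lhx1 was at -0.321 and Car8 at -0.93. Car8 was lower in males and in females under all 10 and 11 alternatives tried for its value there. Pcp2 and Lhx5 kept their signs in both sexes under as many, so this was not particular to Car8. Every alternative used the same 2 mg array of a sex. With the 75th percentile shift the median of all probes in females was 0.45, against -0.21. Signal over background limits the dim array, where 4 of the 9 genes were not well above it.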
